A study of Mus musculus with 6 samples.

Results

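The mouse Cyp2c genes encode microsomal cytochrome P450 enzymes, and 10 of them were followed here in colon tissue: Cyp2c29, Cyp2c38, Cyp2c40, Cyp2c55, Cyp2c65, Cyp2c66, Cyp2c67, Cyp2c68, Cyp2c69 and Cyp2c70. They were chosen by gene symbol from the 35275 genes of the deposited tables. The family was selected from earlier results of these same 6 libraries, in which some members fell, so every change of a member below is a description and carries no p-value. RNA came from whole colon tissue of C57BL/6 mice, collected 6 h after phosphate-buffered saline (PBS, the control), the cytokine WT IL-22, or its designed variant 22-B3, with each protein given at 200 µg per mouse. Each of the 3 groups had 2 libraries. The labels do not say whether the 2 libraries of a group came from separate animals, so the spread between them may be technical.

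Cytochrome P450 enzymes carry a heme group, take electrons from the reductase Por in the membrane of the endoplasmic reticulum, and insert an oxygen atom into small lipophilic molecules. Enzymes of the Cyp2c family turn arachidonic acid and other fatty acids into epoxides and hydroxy acids, and they also act on drugs, steroids and other foreign compounds. In liver and gut their genes are known targets of Hnf4a and of the xenobiotic receptors Nr1i2 (PXR) and Nr1i3 (CAR). Interleukin-22 reaches epithelial cells, which carry its receptor chains Il22ra1 and Il10rb, and STAT3 is its main signal.

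All 10 members lay on chromosome 19 (build mm10, coordinates of the deposited tables) within 1180.3 kb, from 39007019 to 40187333. No gene of the table other than Cyp2c genes lay inside that stretch, which also held Cyp2c37, Cyp2c39, Cyp2c50, Cyp2c54 and the pseudogene Cyp2c53-ps. The remaining Cyp2c gene of the 16 in the table, Cyp2c44, lay 3817.7 kb beyond the end of the cluster. Promoters of all 10 members were matched in RefSeq (GRCm38.p6, the patch release of the same build). The 150 bases before the RefSeq start site are shown for the 4 near-identical genes Cyp2c40, Cyp2c67, Cyp2c68 and Cyp2c69, for the members Cyp2c65 and Cyp2c70, which share a motif with them, and for Cyp2c55, the most abundant member, which lacks it. Capitals mark the motif CAAAGTCCA, a binding sequence of Hnf4a, on the strand of the gene. The sequences, 5′ to 3′, were as follows.
Cyp2c68: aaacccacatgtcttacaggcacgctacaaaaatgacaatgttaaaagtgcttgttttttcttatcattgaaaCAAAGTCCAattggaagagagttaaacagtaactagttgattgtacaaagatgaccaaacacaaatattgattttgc
Cyp2c69: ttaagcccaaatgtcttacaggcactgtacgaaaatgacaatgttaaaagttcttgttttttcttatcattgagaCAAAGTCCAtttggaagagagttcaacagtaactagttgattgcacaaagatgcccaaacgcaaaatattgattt
Cyp2c40: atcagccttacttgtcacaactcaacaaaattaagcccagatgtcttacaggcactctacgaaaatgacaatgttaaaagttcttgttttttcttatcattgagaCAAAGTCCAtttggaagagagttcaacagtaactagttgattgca
Cyp2c67: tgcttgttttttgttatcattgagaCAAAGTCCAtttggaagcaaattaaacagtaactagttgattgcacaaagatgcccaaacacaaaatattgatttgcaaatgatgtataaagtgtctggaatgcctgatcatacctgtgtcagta
Cyp2c65: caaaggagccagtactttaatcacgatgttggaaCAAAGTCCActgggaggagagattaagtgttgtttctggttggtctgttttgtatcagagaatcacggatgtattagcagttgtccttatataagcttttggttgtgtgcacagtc
Cyp2c70: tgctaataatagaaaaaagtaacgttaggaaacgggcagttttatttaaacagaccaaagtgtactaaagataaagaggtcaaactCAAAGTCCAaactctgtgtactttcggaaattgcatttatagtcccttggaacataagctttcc
Cyp2c55: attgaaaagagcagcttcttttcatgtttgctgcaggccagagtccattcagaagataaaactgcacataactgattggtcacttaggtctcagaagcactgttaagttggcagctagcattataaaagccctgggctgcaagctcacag
The windows are chr19:39741102-39741251 (minus strand) for Cyp2c68, chr19:39886770-39886919 (minus strand) for Cyp2c69, chr19:39812815-39812964 (minus strand) for Cyp2c40, chr19:39649043-39649192 (minus strand) for Cyp2c67, chr19:39060856-39061005 (plus strand) for Cyp2c65, chr19:40187287-40187436 (minus strand) for Cyp2c70 and chr19:39006869-39007018 (plus strand) for Cyp2c55. The patterns below were searched on both strands of the window from 250 bases before to 50 bases after each start site. CAAAGTCCA was found in 6 of the 10 members and in 0.47% of 32851 mouse promoters, its first base 45 bases before the start site in Cyp2c40, 64 in Cyp2c70, 75 in Cyp2c69, 77 in Cyp2c68, 116 in Cyp2c65 and 125 in Cyp2c67. Of these 6 windows, 4 belong to the near-identical genes and share their sequence in part. Aligned end to end, pairs of these 4 windows had 54.2% to 91.1% identity, with Cyp2c68 and Cyp2c69 at the top and Cyp2c40 and Cyp2c67 at the bottom. The start sites of Cyp2c40 and Cyp2c67 lie at different distances from the motif, so their windows cover shifted stretches. The low end of the range therefore understates how alike the sequences around the motif are. The STAT pattern TTCNNNGAA was found in 0 of the 10 members and in 8.3% of all promoters. The nuclear receptor half-site AGGTCA was found in Cyp2c29 and Cyp2c70 and in 16.26% of all promoters, and its variant AGTTCA in Cyp2c40 and Cyp2c69 and in 13.99%. A match is only a match of letters in this window, and none of the patterns overlapped another in a member.

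The members fell into groups of unequal likeness, which bears on how their reads can be told apart. From the coding sequences of the GENCODE M21 annotation, Cyp2c68 and Cyp2c69 shared 93.9% of their amino acids, and the 6 pairs among Cyp2c40, Cyp2c67, Cyp2c68 and Cyp2c69 shared 89.8% to 95.9%. The neighbours Cyp2c65 and Cyp2c66 shared 93.7%. Cyp2c55 stood further apart, at 60% to 71.2% with each of the other members, and Cyp2c70, a liver enzyme of mouse bile acid synthesis, at 51.5% to 60.8%. The encoded proteins were 489 to 491 residues long except that of Cyp2c40, with 520, and all had the P450 heme-binding signature. Each transcript was cut into all its overlapping windows of 100 bases, and windows found letter for letter in another Cyp2c transcript were counted. Their share was 19.8% for Cyp2c68, 36.3% for Cyp2c69, 44.1% for Cyp2c40 and 23.7% for Cyp2c67. It was 7.8% for Cyp2c65 and 0% for Cyp2c55 and Cyp2c70. With windows of 50 bases the shares were 43.3%, 54.8%, 72.1%, 52.8%, 20.2%, 0.5% and 0% in the same order. The read length and the treatment of reads with several matches are not given in the sources used here. The values of Cyp2c40, Cyp2c67, Cyp2c68 and Cyp2c69 are therefore uncertain as single genes, as are those of Cyp2c65 and Cyp2c66, and sums over each set are given as well.

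**Figure D1:**
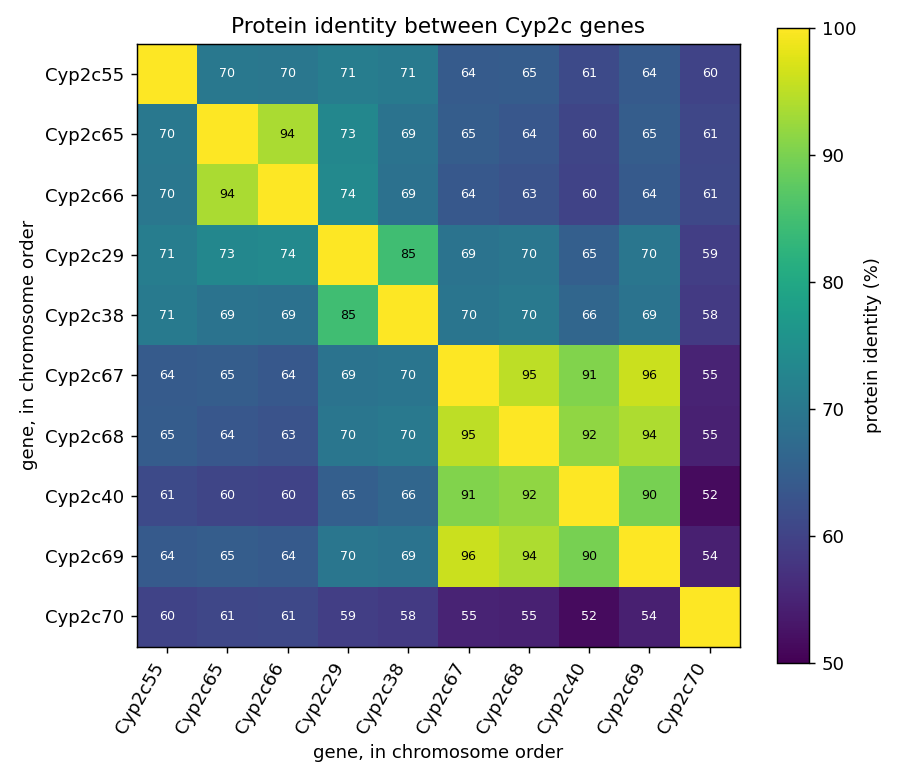
Protein identity in percent between the 10 members, placed in chromosome order on both axes, with the colour running from 50 to 100%. The block of Cyp2c67, Cyp2c68, Cyp2c40 and Cyp2c69 lies between 89.8% and 95.9%, and Cyp2c55 reaches at most 71.2% with any other member.

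Total counts per library ran from 17428528 to 22081904. The 2 PBS libraries were unusually close to each other, with a coefficient of variation beyond counting error of 5.47% across genes, against 17.1% for the WT IL-22 pair and 22% for the 22-B3 pair, so a spread shared by all 6 libraries may be too small for the treated groups. Epithelial markers were high throughout, with a summed level of 15700 to 19000 CPM (library-scaled counts, by the TMM method). Markers are counted as higher or lower in this paragraph only where edgeR called them at an adjusted p under 0.05 against PBS. Among all tested genes, 9.9% were called higher and 6.74% lower after WT IL-22. For 22-B3 those shares were 0.947% and 0.154%. A marker that was not called can still differ. Of the 8 epithelial markers, 2 were called higher after WT IL-22 and 0 lower. Lgals4 was not called, although its level was 4750 and 4690 CPM in the PBS libraries and 2770 and 3370 after WT IL-22. Mature colonocyte markers summed to 6660 and 6810 CPM with PBS, 5360 to 6350 with WT IL-22 and 5720 to 7090 with 22-B3, with 3 of 11 higher and 2 lower with WT IL-22. Smooth muscle markers summed to 12700 and 12800 CPM with PBS, 6230 and 8860 with WT IL-22, where 4 of 8 were lower, and 8820 and 11000 with 22-B3. Markers of stem and dividing cells summed to 325 and 339 CPM with PBS, 576 and 654 with WT IL-22, where 3 of 8 were higher, and 527 and 550 with 22-B3, where 2 of 8 were higher. Goblet cell markers summed to 10700 and 11000 CPM with PBS, 7690 and 8220 with WT IL-22, where 1 of 8 was lower, and 6840 and 8790 with 22-B3. Macrophage markers ran from 580 to 599 CPM with PBS, 269 to 374 with WT IL-22, where 4 of 8 were lower, and 382 to 386 with 22-B3, and those of B and plasma cells from 559 to 569, 351 to 415 (1 of 7 lower) and 344 to 423. By gut region, distal colon markers ran from 509 to 513, 343 to 430 and 534 to 675 CPM in the same order, with 1 of 4 lower with WT IL-22, and small intestine markers from 324 to 326, 193 to 240 and 141 to 271, with 1 of 6 tested lower with WT IL-22. No marker of these lists was at 0 in every library. The calls leave out part of the movement. Among the goblet cell markers, Tff3, Zg16 and Agr2 each lay below PBS in both WT IL-22 libraries, and Fcgbp lay above. Every smooth muscle marker except Myh11 lay below PBS in both WT IL-22 libraries. In tissue of many cell types, fewer cells of one type and less RNA per cell cannot be told apart, and the part of these marker levels in the results below was not tested.

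Of the 10 members, 4 had enough reads to be tested, Cyp2c55, Cyp2c65, Cyp2c68 and Cyp2c69, and the other 6 together gave at most 0.776% of the summed Cyp2c level in any library. Levels are given as FPKM, counts scaled to gene length and library total, which allows genes to be set beside each other. With PBS, Cyp2c55 led at 289 ± 11.3 FPKM (SD, n = 2, as for all means below), followed by Cyp2c68 at 100 ± 1.7, Cyp2c65 at 13.8 ± 1.71 and Cyp2c69 at 12.2 ± 0.47. The last 2 lay within their spread of each other. With WT IL-22 the order was Cyp2c55 at 96.3 ± 32.4, Cyp2c65 at 16.2 ± 10.5, Cyp2c68 at 11.7 ± 2.97 and Cyp2c69 at 0.983 ± 0.311 FPKM, and Cyp2c65 and Cyp2c68 did not differ beyond their spread. With 22-B3 it was Cyp2c55 at 92.5 ± 47.6, Cyp2c68 at 42.5 ± 9, Cyp2c65 at 10.9 ± 5.24 and Cyp2c69 at 3.53 ± 1.14 FPKM. Replicate 1 of 22-B3 had 58.9 FPKM of Cyp2c55 and 48.9 of Cyp2c68, so these neighbours lay close together there, and their group means differed by about the spread of Cyp2c55.

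Cyp2c55 (ENSMUSG00000025002, 39007019 to 39042693, plus strand), a large-intestine P450 that hydroxylates arachidonic acid in mouse, stood at 589 and 577 CPM in PBS colon, at 230 and 144 after WT IL-22, and at 115 and 267 after 22-B3. Both treated groups lay below both PBS libraries, and the treated groups overlapped each other, with the 22-B3 libraries at either end. The fitted log2 change with WT IL-22 was -1.64 (SE 0.37, 95% interval -2.47 to -0.81), a level 3.12-fold lower than with PBS. With 22-B3 it was -1.61 (SE 0.37, -2.44 to -0.78), 3.05-fold lower. Between 22-B3 and WT IL-22 the log2 difference was 0.03 (SE 0.36, -0.78 to 0.84).

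Cyp2c68 (ENSMUSG00000074882, 39688834 to 39741054, minus strand) had 174 and 176 CPM with PBS, 16 and 23.3 after WT IL-22, and 82.3 and 66 after 22-B3. The 3 groups did not overlap. WT IL-22 was lowest and 22-B3 stood between it and PBS. The log2 change was -3.15 with WT IL-22 (SE 0.21, 95% interval -3.63 to -2.67), or 8.88-fold lower, and -1.24 with 22-B3 (SE 0.19, -1.68 to -0.8), or 2.36-fold lower. The level with 22-B3 was 3.77-fold that with WT IL-22, a log2 difference of 1.91 (SE 0.2, 1.45 to 2.37).

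Cyp2c69 (ENSMUSG00000092008, 39842660 to 39886769, minus strand), a near-identical copy, had 22.1 and 21.6 CPM with PBS, 1.31 and 2.09 after WT IL-22, and 4.71 and 8.13 after 22-B3. Its groups kept the same order as those of Cyp2c68 and did not overlap. The log2 change was -3.68 with WT IL-22 (SE 0.32, 95% interval -4.41 to -2.95), or 12.8-fold lower, and -1.77 with 22-B3 (SE 0.29, -2.41 to -1.12), or 3.4-fold lower. The log2 difference between 22-B3 and WT IL-22 was 1.91 (SE 0.32, 1.18 to 2.64). Summed over Cyp2c40, Cyp2c67, Cyp2c68 and Cyp2c69, so that a read could be given to any of the 4, the log2 change was -3.18 (SE 0.21) with WT IL-22, -1.29 (SE 0.19) with 22-B3 and 1.89 (SE 0.2) between 22-B3 and WT IL-22. Over the 6 libraries the log2 CPM of Cyp2c68 and Cyp2c69 had a correlation of 0.97, as a description of libraries that share their groups and of genes that may share reads.

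Cyp2c65 (ENSMUSG00000067231, 39061015 to 39093944, plus strand) is an intestinal member of the family, and its groups were not separated. It had 28.8 and 25 CPM with PBS, 44.1 and 16.7 after WT IL-22, and 13.5 and 29.8 after 22-B3, so that each treated group reached above and below both PBS libraries. The log2 change was 0.17 with WT IL-22 (SE 0.51, 95% interval -1.06 to 1.41), -0.31 with 22-B3 (SE 0.52, -1.56 to 0.93) and -0.49 between 22-B3 and WT IL-22 (SE 0.52, -1.73 to 0.76). These intervals are too wide to show that it stayed level. Summed with its copy Cyp2c66, the log2 changes were 0.18, -0.31 and -0.5 in the same order (SE 0.52 each). Its correlation over the 6 libraries was -0.18 with Cyp2c68, -0.01 with Cyp2c69 and 0.55 with its neighbour Cyp2c55. In the WT IL-22 pair Cyp2c55 and Cyp2c65 were both higher in replicate 1, and in the 22-B3 pair both were higher in replicate 2.

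**Figure D2:**
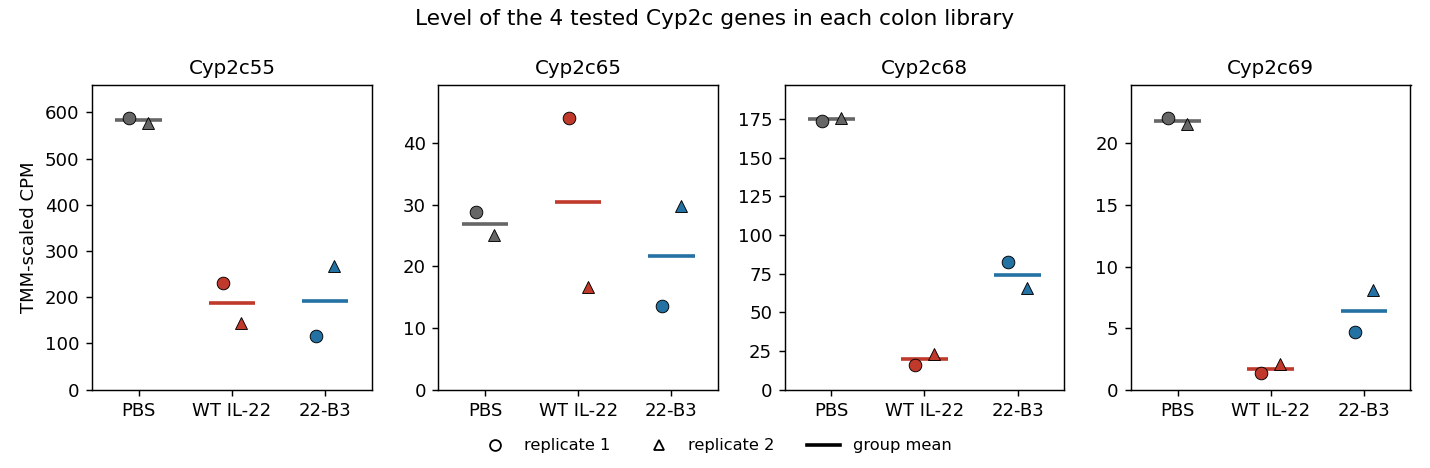
TMM-scaled CPM of the 4 tested members in each library, with circles for replicate 1, triangles for replicate 2 and a line for the group mean, each panel with its own linear axis from 0. Cyp2c68 and Cyp2c69 show 3 groups that do not overlap, Cyp2c55 shows 2 low treated groups that overlap each other, and Cyp2c65 spreads from 13.5 to 44.1 CPM with no separation.

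In the fit across all 15628 tested genes (edgeR, adjusted p under 0.05), 3 of the 4 tested members, Cyp2c55, Cyp2c68 and Cyp2c69, were called lower with WT IL-22 and 0 higher, where 6.74% of all tested genes were called lower and 9.9% higher. With 22-B3 against PBS, 2 were called lower, Cyp2c68 and Cyp2c69, where 0.154% of all tested genes were called lower and 0.947% higher. Cyp2c55 was not called there. Its groups did not overlap, but with 2 libraries a group this can happen without a difference. The share of all tested genes whose groups do not overlap was not counted, so nothing is read from lack of overlap. With 22-B3 against WT IL-22, 1 was called higher, Cyp2c68, where 5 genes or 0.032% of all tested were called higher and 0.0704% lower. Cyp2c69 was not called there in the full fit. It was called in 4 of 17 alternatives, among them DESeq2 on all 6 libraries and the fit without replicate 1 of 22-B3. Since the family was chosen on these contrasts, nothing is read from these shares. The calls of Cyp2c68 and Cyp2c69 with WT IL-22 held in every alternative run, with log2 changes of -3.47 to -2.93 and -4.08 to -2.75. That of Cyp2c55 with WT IL-22 was lost when any of the 4 libraries compared was left out, at log2 changes of -1.62 and -1.65 with 1 PBS library (without replicate 1 and replicate 2 in turn) and of -2.05 and -1.36 with 1 WT IL-22 library. It was also lost with no low-count filter, with the replicate block, with the PBS libraries summed and with limma on log2(FPKM + 0.1) without a filter, so in 8 of 17 alternatives in all, at log2 changes of -2.05 to -1.36. Without 22-B3 replicate 2, Cyp2c55 was called lower with 22-B3 as well, at a log2 change of -2.34. The calls of Cyp2c68 and Cyp2c69 with 22-B3 were lost without PBS replicate 1 or PBS replicate 2, at log2 changes of -1.24 and -1.23 for Cyp2c68 and -1.75 and -1.78 for Cyp2c69. The call of Cyp2c68 between 22-B3 and WT IL-22 was lost without PBS replicate 1, PBS replicate 2 or WT IL-22 replicate 1, at log2 differences of 1.91, 1.91 and 1.66. The comparisons with PBS share the 2 PBS libraries and are not independent of each other.

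**Figure D3:**
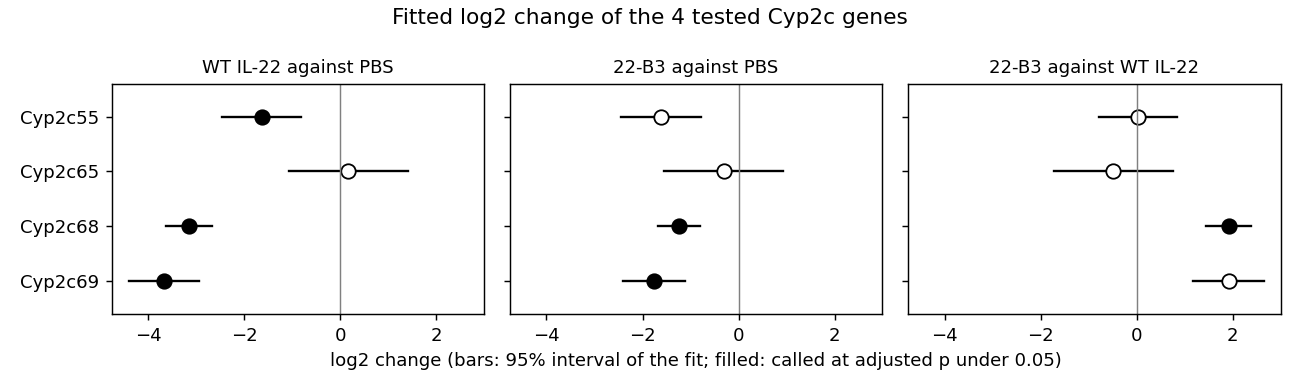
Fitted log2 change of the 4 tested members in the 3 comparisons, with bars for the 95% interval and filled points for genes called at an adjusted p under 0.05 over all tested genes. The intervals of Cyp2c68 and Cyp2c69 lie wholly below 0 against PBS and wholly above 0 for 22-B3 against WT IL-22, and those of Cyp2c65 cross 0 in all 3 panels.

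The other 6 members had too few reads to be tested, with at most 22 counts in any library, reached by Cyp2c29. The limit of detection is 3 counts per library or 0.133 to 0.168 CPM. Cyp2c38 had no count in any library, which allows a level of up to 0.168 CPM. Cyp2c40, an intestinal arachidonic acid hydroxylase in mouse, had 8 and 7 counts with PBS, 1 and 11 after WT IL-22, and 1 and 6 after 22-B3. Cyp2c67 had 8 and 5 counts with PBS, 1 and 3 after WT IL-22, and 1 and 0 after 22-B3. Both are copies of the far more abundant Cyp2c68, and both had more counts in the PBS libraries than in replicate 1 of either treated group. Cyp2c70 had 3 and 2 counts with PBS, 0 and 2 after WT IL-22, and 0 and 5 after 22-B3. Cyp2c66 had 8 counts in replicate 1 of WT IL-22, the library with the most counts of its copy Cyp2c65 (944), and 0 in each of the other 5 libraries. No fold change is given for these genes.

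Cyp2c29, a liver epoxygenase, had 22 counts in replicate 2 of WT IL-22, 1 in each PBS library and 0 in the other 3 libraries. Among family genes outside the 10, Cyp2c37 and Cyp2c50 had their highest counts in the same library, all of them low. Cyp2c37 had 6 counts there against 3 and 2 with PBS, and Cyp2c50 had 6 there against 0 and 2 with PBS, while both had 0 in the other treated libraries. Cyp2c70, the liver enzyme among the members, was not highest there, with 2 counts against 3 and 2 with PBS and 5 in replicate 2 of 22-B3. Of the 10 liver markers, 6 were highest in the same library (Alb, Apoa1, Serpina1a, Fgb, Ahsg and Cyp7a1, the last with 2 counts) and 4 were not (Ttr, Tat, Cyp2e1 and Apoh). Alb, encoding serum albumin, had 903 counts there against 28 to 167 in the other 5 libraries, Apoa1 had 96 against 0 to 16, and Serpina1a had 14 against 0 to 3. Ttr, a carrier of thyroid hormone, had 424 counts there against 1228 and 1090 with PBS, 259 in replicate 1 of WT IL-22, and 657 and 615 after 22-B3. Tat, an enzyme of tyrosine breakdown, had 934 counts there against 1408 in replicate 1 of WT IL-22. The summed level of all 10 liver markers was 119 CPM there and 63.6 to 97.7 in the others. The part of liver RNA in the Cyp2c29 counts was not tested. Cyp2c39, Cyp2c54 and Cyp2c53-ps had no counts. Cyp2c44, an epoxygenase of vessels and kidney that is named Cyp2c23 in GENCODE M21, had 1.23 and 2.34 CPM with PBS, 1.03 and 0.933 after WT IL-22, and 1.74 and 1.22 after 22-B3, and was not called in any comparison.

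Summed over the 10 members, the Cyp2c level was 815 and 800 CPM with PBS, 292 and 187 after WT IL-22, and 216 and 371 after 22-B3. Both treated groups lay well below PBS and overlapped each other. The group means were 807 ± 10.6, 240 ± 74.1 and 293 ± 110 CPM, which give log2 ratios of -1.75 for WT IL-22 to PBS, -1.46 for 22-B3 to PBS and 0.29 for 22-B3 to WT IL-22. The last ratio turned to -0.16 without 22-B3 replicate 2.

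The sum was made up differently in the groups. Cyp2c55 gave 69.6% and 69.4% of the summed FPKM with PBS, 77.7% and 74.9% after WT IL-22, and 50% and 69.5% after 22-B3. Cyp2c68 gave 23.8% and 24.5% with PBS, 6.25% and 14.1% after WT IL-22, and 41.5% and 19.9% after 22-B3, so that its share was lowest with WT IL-22 and the 22-B3 libraries lay on both sides of PBS. Cyp2c65 gave 3.52% and 3.12% with PBS, 15.4% and 8.99% after WT IL-22, and 6.09% and 8.03% after 22-B3, with both shares of each treated group above those of PBS. Cyp2c69 gave 2.94% in both PBS libraries, 0.497% and 1.23% after WT IL-22, and 2.31% and 2.39% after 22-B3. The other 6 members together gave 0.0552% to 0.776%. Cyp2c69 took 11.3% and 11% of the counts of the Cyp2c68 and Cyp2c69 pair with PBS, 7.55% (exact binomial 95% interval 5.07 to 10.7) and 8.22% (6.1 to 10.8) after WT IL-22, and 5.41% (4.34 to 6.66) and 11% (9.34 to 12.8) after 22-B3. These intervals cover counting error only.

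**Figure D4:**
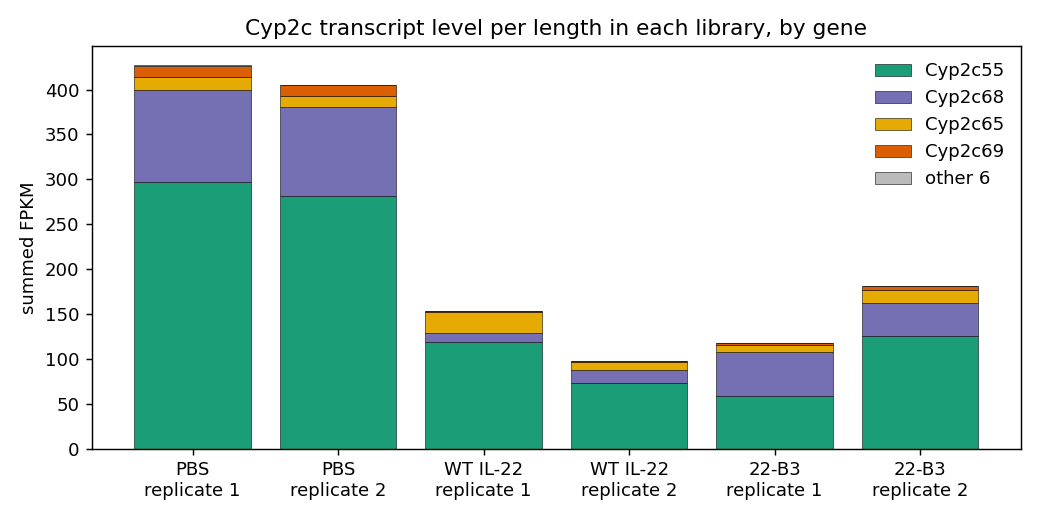
Summed FPKM of the 10 members in each library, stacked by gene, on a linear axis from 0. The PBS bars reach 427 and 406 FPKM and the treated bars 98 to 182, and the Cyp2c68 block is thinnest in the WT IL-22 libraries.

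The genes around the Cyp2c enzymes were described through 4 lists with 107 genes, of which 95 were tested. These lists were chosen with earlier results of these data known, so their counts and medians are a description. The adjusted p-values cover all tested genes and take no account of that choice. With WT IL-22, 3 of the 95 were called higher and 22 lower, beside 9.9% and 6.74% of all tested genes, and their median log2 change was -0.1 against -0.01 over all tested genes. The count of 25 dropped to 0 when either PBS replicate 1 or PBS replicate 2 was left out. It was 3 without WT IL-22 replicate 1, and leaving out WT IL-22 replicate 2 gave 16. It was also 0 with the 2 PBS libraries summed into 1. With 22-B3, 0 of the 95 were called against PBS by edgeR, with 16 at an unadjusted p under 0.05 and 3 called by DESeq2. Between 22-B3 and WT IL-22, 0 were called by edgeR, with 14 at an unadjusted p under 0.05 and 3 called by DESeq2. The 22-B3 libraries also decided these counts. Leaving out replicate 1 of 22-B3 gave 1 call against PBS and 11 against WT IL-22, and leaving out replicate 2 gave 15 and 2.

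Among 25 regulators, 1 was called higher and 1 lower with WT IL-22, and the list's median log2 change was 0.28. Nr1h4, the bile acid receptor FXR, rose from 42.3 ± 1.33 with PBS to 66.7 ± 0.25 CPM (log2 change 0.66, adjusted p = 0.0213, edgeR). Its call held in 12 of 17 alternatives, with log2 changes of 0.54 to 0.71 over all of them. The known upstream factors of the family did not pass. Hnf4a had 606 and 596 CPM with PBS, 903 and 698 after WT IL-22, and 832 and 727 after 22-B3, with a log2 change of 0.41 with WT IL-22 (adjusted p = 0.149, edgeR) and 0.37 with 22-B3 (adjusted p = 0.318). Nr1i2 had 56.6 and 60.6 CPM with PBS, 54.3 and 56.6 after WT IL-22, and 62.3 and 62.7 after 22-B3, with log2 changes of -0.08 (edgeR adjusted p = 0.7) and 0.09 (adjusted p = 0.727). Nr1i3 was low, at 2.4 ± 0.161 CPM with PBS, 1.38 ± 0.628 with WT IL-22 and 2.04 ± 0.266 with 22-B3, with a log2 change of -0.8 with WT IL-22 (adjusted p = 0.183, edgeR).

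Of 17 genes for redox partners and heme synthesis, 0 were called higher and 2 lower with WT IL-22, with a median log2 change of 0.03. Por, the electron donor of all microsomal P450 enzymes, stood at 119 ± 2.85 CPM with PBS, 123 ± 29 with WT IL-22 and 132 ± 25.3 with 22-B3, a log2 change of 0.04 with WT IL-22 (adjusted p = 0.911, edgeR). Cyb5a, cytochrome b5, a second electron donor, fell from 92.4 ± 4.96 with PBS to 60.4 ± 2.85 CPM (log2 change -0.61, adjusted p = 0.028, edgeR). The call of Cyb5a held in 11 of 17 alternatives, with log2 changes of -0.73 to -0.55 over all of them. Uros, an enzyme of heme synthesis, fell from 22.7 ± 0.413 with PBS to 12.6 ± 0.0599 CPM (log2 change -0.84, adjusted p = 0.0133, edgeR).

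Of 26 genes of arachidonic acid and epoxide metabolism, 21 were tested, and 1 was called higher and 5 lower with WT IL-22, with a median log2 change of -0.26. The RNA of Pla2g2a, a gene of the secreted phospholipase family, rose from 4.75 ± 0.614 with PBS to 17.4 ± 2.9 CPM (log2 change 1.87, adjusted p = 0.00582, edgeR). With 22-B3 it stood at 13.3 ± 4.99 CPM (log2 change 1.49, edgeR adjusted p = 0.0507), which missed the threshold. Whether these mice make an active Pla2g2a enzyme was not tested. Hpgd, which breaks down prostaglandins, fell from 324 ± 0.305 with PBS to 143 ± 5.26 CPM (log2 change -1.19, adjusted p = 0.00266, edgeR). Cyp2j9, a P450 of the 2J family, fell from 5.35 ± 0.426 with PBS to 2.54 ± 0.508 CPM (log2 change -1.08, adjusted p = 0.0348, edgeR). Its call held in 11 of 17 alternatives, with log2 changes of -1.32 to -0.61 over all of them. Cbr1, a carbonyl reductase, fell from 388 ± 12.9 with PBS to 187 ± 14.2 CPM (log2 change -1.05, adjusted p = 0.00999, edgeR).

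Of 39 detoxification genes known as nuclear receptor targets, 32 were tested, and 1 was called higher and 14 lower with WT IL-22. The median log2 change of this list was -0.51 with WT IL-22, -0.13 with 22-B3 and 0.28 between 22-B3 and WT IL-22, where the medians over all tested genes were -0.01, 0.01 and 0. Sult1d1, a sulfotransferase, had 345 and 330 CPM with PBS, 148 and 165 after WT IL-22, and 148 and 235 after 22-B3, with a log2 change of -1.11 with WT IL-22 (adjusted p = 0.0134, edgeR). Cyp3a13, a P450 of the 3A family, had 154 and 151 CPM with PBS, 75.4 and 77 after WT IL-22, and 86.2 and 113 after 22-B3, a log2 change of -1 with WT IL-22 (adjusted p = 0.00672, edgeR) and -0.62 with 22-B3 (adjusted p = 0.113). The glutathione transferases Gsta1 and Gsta3, close paralogs whose reads may be shared, changed by -1.08 (edgeR adjusted p = 0.0104) and -0.96 (adjusted p = 0.0067) with WT IL-22. With 22-B3, Gsta3 stood at 29.3 ± 0.941 CPM beside 29.7 ± 2.61 with PBS and 15.3 ± 0.829 with WT IL-22, and its log2 difference of 0.94 between 22-B3 and WT IL-22 did not pass (edgeR adjusted p = 0.0965). Smooth muscle, stem cell and macrophage markers differed between the same libraries, with the values given above, and their part in these counts was not tested.

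**Figure D5:**
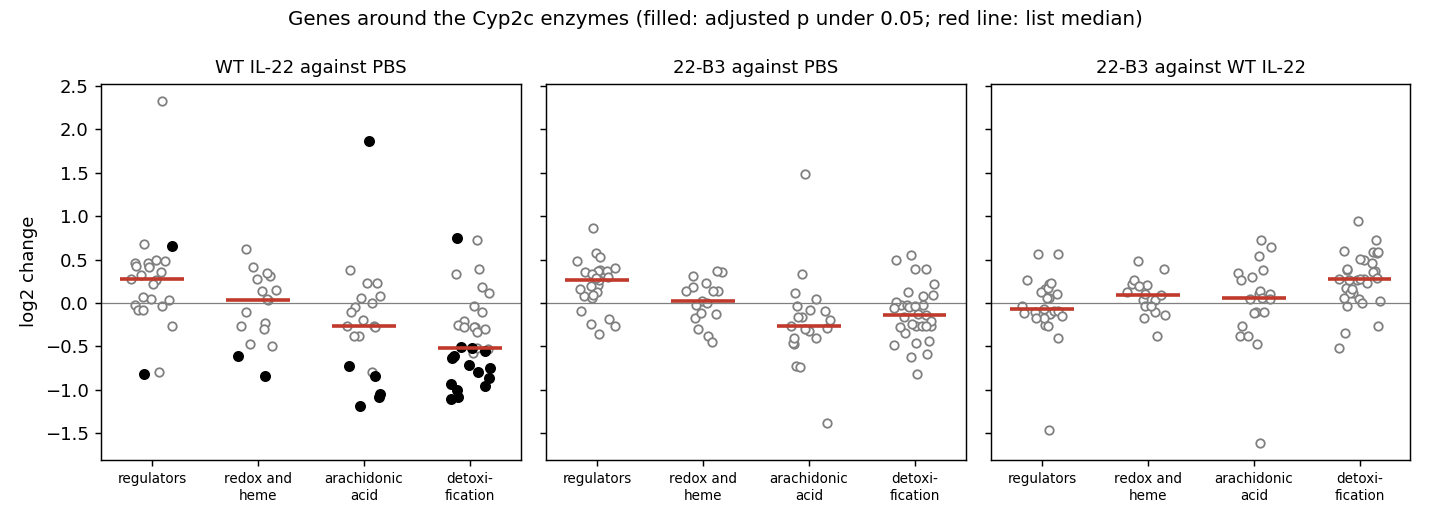
Fitted log2 change of the 95 tested genes in 4 lists around the Cyp2c enzymes, 1 point per gene, filled where the adjusted p was under 0.05, with a red line at the list median. With WT IL-22 the filled points above and below 0 number 1 and 1 among the regulators, 0 and 2 in the redox and heme list, 1 and 5 in the arachidonic acid list, and 1 and 14 in the detoxification list. The panels for 22-B3 against PBS and against WT IL-22 hold 0 filled points.

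Of the 6 tested genes that flank the cluster, 3 were called higher with WT IL-22 and 0 lower, beside 9.9% and 6.74% of all tested genes. On the side of Cyp2c55, the nearest tested gene was Hells, a chromatin remodeller of dividing cells (chromosome 19, 38930915 to 38971051), whose log2 change was 2.41 with WT IL-22 (adjusted p = 0.000272, edgeR) and 1.87 with 22-B3 (adjusted p = 0.00186). Beyond it, the log2 change with WT IL-22 was -0.09 for Tbc1d12 (edgeR adjusted p = 0.776) and 0.73 for Noc3l, a nucleolar protein gene (adjusted p = 0.0377). On the side of Cyp2c70 it was 0.03 for Pdlim1 (edgeR adjusted p = 0.918) and 1.18 for Aldh18a1, an enzyme of proline synthesis (adjusted p = 0.00233). Of the 3 flanking genes called with WT IL-22, the call of Hells held in every alternative run. That of Aldh18a1 held in 14 of 17. It was lost without PBS replicate 1 or PBS replicate 2 and with the PBS libraries summed. That of Noc3l held in 8 of 17. It was lost without any 1 of the 4 libraries compared, with the PBS libraries summed, with upper-quartile scaling and with every limma setting.

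Genes were ranked by how closely their log2 CPM followed the log2 summed Cyp2c level over the 6 libraries. The candidates were 12019 genes with a mean count of at least 50. The members, immunoglobulin genes and predicted-gene symbols (Gm, Rik, LOC or ENS) were left out beforehand. The 5 closest candidates were Arglu1 (r = 0.996), Izumo4 (0.9956), Pcsk1n (0.9918), Sgk3 (0.9907) and Ccdc17 (0.9907). A correlation above 0.95 was reached by 83 of the 12019 genes, and all share the same 6 libraries and the gap between the close PBS pair and the rest. Izumo4 had 11.6 and 11.7 CPM with PBS, 4.58 and 3.15 after WT IL-22, and 4.04 and 5.68 after 22-B3. Arglu1 moved far less for the same correlation, from 44.1 and 43.2 CPM with PBS to 35.4 at the lowest.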

How the data were processed

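The deposited count table gives whole-number read counts per gene without normalization, per the file headers and values, for 6 libraries in 3 groups of 2 taken from the labels. The FPKM values were made by the authors from those counts, gene length and library total, with a largest relative deviation of 5e-12. The submitters' processing notes name STAR 2.5 and build mm10. Neither read counter nor strand setting is given in the sources used here.

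Genes kept by filterByExpr (minimum count 10, 15628 of 35275) were TMM-scaled and fitted with 1 mean per group over all 6 libraries with edgeR 4.0.16 (R 4.3.3). The quasi-likelihood test was adjusted by Benjamini-Hochberg over all tested genes and called at 0.05. CPM is TMM-scaled. Intervals are at 95%, and floors are 3 counts per library and cover counting error only. A self-test on simulated counts was run. The members and gene lists were chosen with earlier results of these data known. Besides all Cyp2c genes, the text names up to 4 called genes per list with the largest change, Hnf4a, Nr1i2, Nr1i3 and Por, 3 tested genes on each side of the cluster and the 5 genes most alike. The results of 2 genes that this rule names are not reported here. Protein identities came from GENCODE M21 coding sequences aligned with Biopython 1.88, and promoters from RefSeq. Alternatives, 19 in all, included DESeq2 1.42.0, limma 3.58.1 on log2(FPKM + 0.1) and log2(FPKM + 1), other scalings and filters, a replicate block, summed PBS libraries and each library left out. The labels give no pairing by replicate number, and the main fit used none.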

Additional observations from a re-analysis of the deposited data

How the results depend on the processing

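With 2 libraries per group, calls near the threshold depend on single libraries and on the close PBS pair. The log2 changes of Cyp2c68 and Cyp2c69 against PBS kept their direction in every alternative run. The cause of the changes below was not tested. Leaving out 1 library at a time, the number of Cyp2c members called ranged from 2 to 3 for WT IL-22 against PBS (3 in the full fit), 0 to 3 for 22-B3 against PBS (2) and 0 to 2 for 22-B3 against WT IL-22 (1). The number of pathway genes called ranged from 0 to 36 (25), 0 to 15 (0) and 0 to 11 (0), and the log2 ratio of the summed Cyp2c level from -2.13 to -1.49, -1.9 to -1.15 and -0.16 to 0.64. With the PBS libraries summed, 0 pathway genes were called for WT IL-22 against PBS, 0 members for 22-B3 against PBS and 0 for 22-B3 against WT IL-22. Limma without a filter called 15 pathway genes for WT IL-22 against PBS and 0 members in both other comparisons. For 22-B3 against PBS, the pathway count of 0 became 3 with DESeq2, 1 with total-count scaling, 2 without a filter and 1 with limma on either pseudocount. For 22-B3 against WT IL-22, members called numbered 2 with DESeq2, 2 without a filter and 0 with only those 2 groups fitted, and pathway genes 3 with DESeq2 and 1 without a filter. Upper-quartile scaling moved the median log2 change of all genes for WT IL-22 against PBS to -0.13.

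The replicate block called 2, 2 and 2 members and 32, 6 and 2 pathway genes in the 3 comparisons. Over all tested genes, WT IL-22 against PBS had 1547 called higher and 1054 lower in the full fit, and 2496 and 2008 with the block. The other comparisons also gained calls. The replicate differences correlated at 0.037 between PBS and WT IL-22, 0.04 between PBS and 22-B3 and 0.208 between WT IL-22 and 22-B3. The labels name no pairing or batch, and whether libraries of the same number were handled together was not tested.

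Of 210 values of single members, 173 kept direction and call, 22 lost and 5 gained a call, and 10 turned sign, all of them changes not called in the full fit. Leaving out 1 library, the log2 change of Cyp2c65 ranged from -0.72 (no WT IL-22 replicate 1) to 0.69 with WT IL-22, from -0.99 to 0.12 (no 22-B3 replicate 1) with 22-B3, and from -1.17 to 0.38 (no WT IL-22 replicate 1) between the treatments. Cyp2c55 between the treatments turned to -0.06 with total-count scaling, -0.02 with the replicate block and -0.12 with limma in all 3 settings. Leaving out 1 library it ranged from -0.7 (no 22-B3 replicate 2) to 0.51, at -0.27 with WT IL-22 replicate 2 left out. Of 272 values of the other named genes that had been called, 208 kept the call and 64 lost it, none with a change of sign.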
